A study of Mus musculus with 6 samples.

Results

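Lactate and pyruvate cross 2 sets of membranes in the heart, and the genes described here encode the proteins that carry them. The 7 genes were chosen by name and known protein role, not from their values, although earlier results of these data were known. *Slc16a1*, *Slc16a3* and *Slc16a7* encode the monocarboxylate transporters MCT1, MCT4 and MCT2. *Bsg* and *Emb* encode basigin and embigin, the membrane chaperones of these transporters, and *Mpc1* and *Mpc2* encode the subunits of the mitochondrial pyruvate carrier. All 7 were among the 16018 genes of the deposited table. The RNA had been sequenced from whole hearts of female mice aged 4 to 5 weeks, 3 KOb/c and 3 WT. KOb/c mice (labelled NBCe1-B/C KO) lack the B and C variants of the electrogenic sodium bicarbonate cotransporter NBCe1, a product of *Slc4a4*, in every tissue and from conception. Both genotypes came from crosses of heterozygous mice on a C57BL/6J background, no drug treatment is named for either, and many KOb/c mice die before or near the age that was studied, so the hearts are those of animals that had survived. Whole-heart RNA holds the RNA of all cell types of the organ.

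MCT proteins move lactate, pyruvate or ketone bodies across the cell membrane together with a proton, so that their transport also moves acid. MCT1 is the main carrier of heart muscle and takes up as well as releases lactate, MCT4 is best known from tissues that export lactate from glycolysis, and MCT2 has a high affinity for its substrates. MCT1 and MCT4 mostly rely on basigin to reach the cell surface, and MCT2 mostly uses embigin. Inside the cell, the MPC1 and MPC2 proteins form 1 heteromeric complex of the inner mitochondrial membrane, and pyruvate that has passed it is oxidised by pyruvate dehydrogenase. NBCe1 moves bicarbonate, and is thus another route by which cardiac muscle handles acid.

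RefSeq windows (GRCm38.p6) from 250 bases before to 50 bases after a transcription start were held for 5 of the 7 genes, with 6 windows in all, and none for *Bsg* and *Slc16a7*. The sequences below are those of the main cell-surface carrier, of its lower-level relative and of 1 subunit of the mitochondrial carrier, each cut before the first exon that GENCODE M21 places in the window. They are printed 5′ to 3′ on the plus strand, and the capitals mark every match on either strand to the hypoxia response core ACGTG, the E-box CACGTG, the CCAAT box CCAAT and the GC box GGGCGG. The *Slc16a1* stretch is chr3:104638414-104638663, the *Slc16a3* stretch is chr11:120948817-120949052, and the *Mpc1* stretch, from the first of its 2 windows, is chr17:8283537-8283761.
Slc16a1: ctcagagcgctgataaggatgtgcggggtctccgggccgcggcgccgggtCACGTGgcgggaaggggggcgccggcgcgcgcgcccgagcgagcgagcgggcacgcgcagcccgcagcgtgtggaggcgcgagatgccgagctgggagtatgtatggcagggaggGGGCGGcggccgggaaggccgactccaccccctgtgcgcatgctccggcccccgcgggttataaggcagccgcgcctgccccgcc
Slc16a3: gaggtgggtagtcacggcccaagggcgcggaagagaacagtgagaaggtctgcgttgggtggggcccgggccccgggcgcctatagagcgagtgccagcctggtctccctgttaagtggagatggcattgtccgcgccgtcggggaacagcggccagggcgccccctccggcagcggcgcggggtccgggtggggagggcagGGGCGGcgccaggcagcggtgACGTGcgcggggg
Mpc1: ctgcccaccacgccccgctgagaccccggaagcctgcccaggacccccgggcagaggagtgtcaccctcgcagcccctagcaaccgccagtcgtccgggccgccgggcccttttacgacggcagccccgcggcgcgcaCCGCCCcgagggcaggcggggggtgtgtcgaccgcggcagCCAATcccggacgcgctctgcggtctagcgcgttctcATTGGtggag

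In its whole window, *Slc16a1* held the palindrome CACGTG 200 bases before the start, which reads as ACGTG on both strands, and a further ACGTG 20 bases after the start. *Slc16a3* held ACGTG 27 bases and 14 bases before its start. The windows of *Mpc1*, *Mpc2* and *Emb* held no ACGTG. Of all 32851 windows in the RefSeq table, 19.6% held ACGTG and 7.15% held CACGTG. The first *Mpc1* window held CCAAT 72 bases and 35 bases before the start, and the *Mpc2* window held it 215 bases before, where 37.4% of all windows hold it. GGGCGG was found in each of the 6 windows and in 35.7% of all windows. AAGGTCA, the core of the response element of oestrogen-related receptors, was in none of the 6 and in 4.72% of all. These letters describe the windows and say nothing of what binds there.

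The libraries held between 41364857 and 49100802 recovered reads on genes, so that counting error was small for most carriers. *Slc4a4*, the targeted gene, was listed at 264, 944.8 and 268.7 normalized counts in the libraries labelled KOb/c replicates 1, 2 and 3, and at 675.1, 822.2 and 788.8 in the WT libraries. The library labelled KOb/c replicate 2 thus lay above the WT libraries in this check of the labels, and the counts do not separate the variants of the gene. Fold changes are therefore also given without it for the carriers. The same holds for the other genes that are named with a fold change and had an unadjusted p under 0.05. The 6 cardiomyocyte markers had a summed level from 2331700 to 2627400 normalized counts in the libraries labelled KOb/c and from 1963300 to 2074300 in the WT libraries, and the 5 endothelial markers from 39067 to 41994 and from 35559 to 37658, so that both sums were higher in each library labelled KOb/c. The cardiomyocyte sum followed *Myh6*, at 1086000 to 1259000 normalized counts against 743000 to 869100, whereas *Tnni3* was lower in each library labelled KOb/c, at 125000 to 136100 against 139000 to 150100. The part of these markers in the differences was not tested. The sum of 5 measured skeletal muscle markers was 831.1 in KOb/c replicate 2 and between 49.6 and 289.8 in the other libraries. Over all 16016 genes tested, limma with Benjamini-Hochberg adjustment called 0% at an adjusted p under 0.05 and 23.5% at an unadjusted p under 0.05, edgeR's quasi-likelihood test called 0% and DESeq2 called 9.91% after adjustment.

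Per kilobase of the longest protein-coding transcript, the carriers stood at 4 levels. *Bsg* stood highest, with a mean level of 31040 normalized counts per kilobase over the 6 libraries. *Mpc1* (12910) and *Mpc2* (10950) followed on the same scale, and the range of *Mpc1*, from 10490 to 14120, overlapped that of *Mpc2*, from 9453 to 12140. *Slc16a1* had a mean level of 1714 normalized counts per kilobase, with a range from 1370 to 2186 that met no other carrier's. *Slc16a3* (43.1), *Emb* (37.7) and *Slc16a7* (35.9) formed the lowest level, and their ranges over the libraries overlapped. The cardiac transporter MCT1 thus led the 3 MCT genes, and the chaperone of MCT1 and MCT4 was listed far above both. The place of *Mpc2* rests on its single coding transcript of 1025 bases: divided by all 7344 annotated exon bases, which include a retained intron, its level was 1528 normalized counts per kilobase, below the 1714 of *Slc16a1*.

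**Figure D1:**
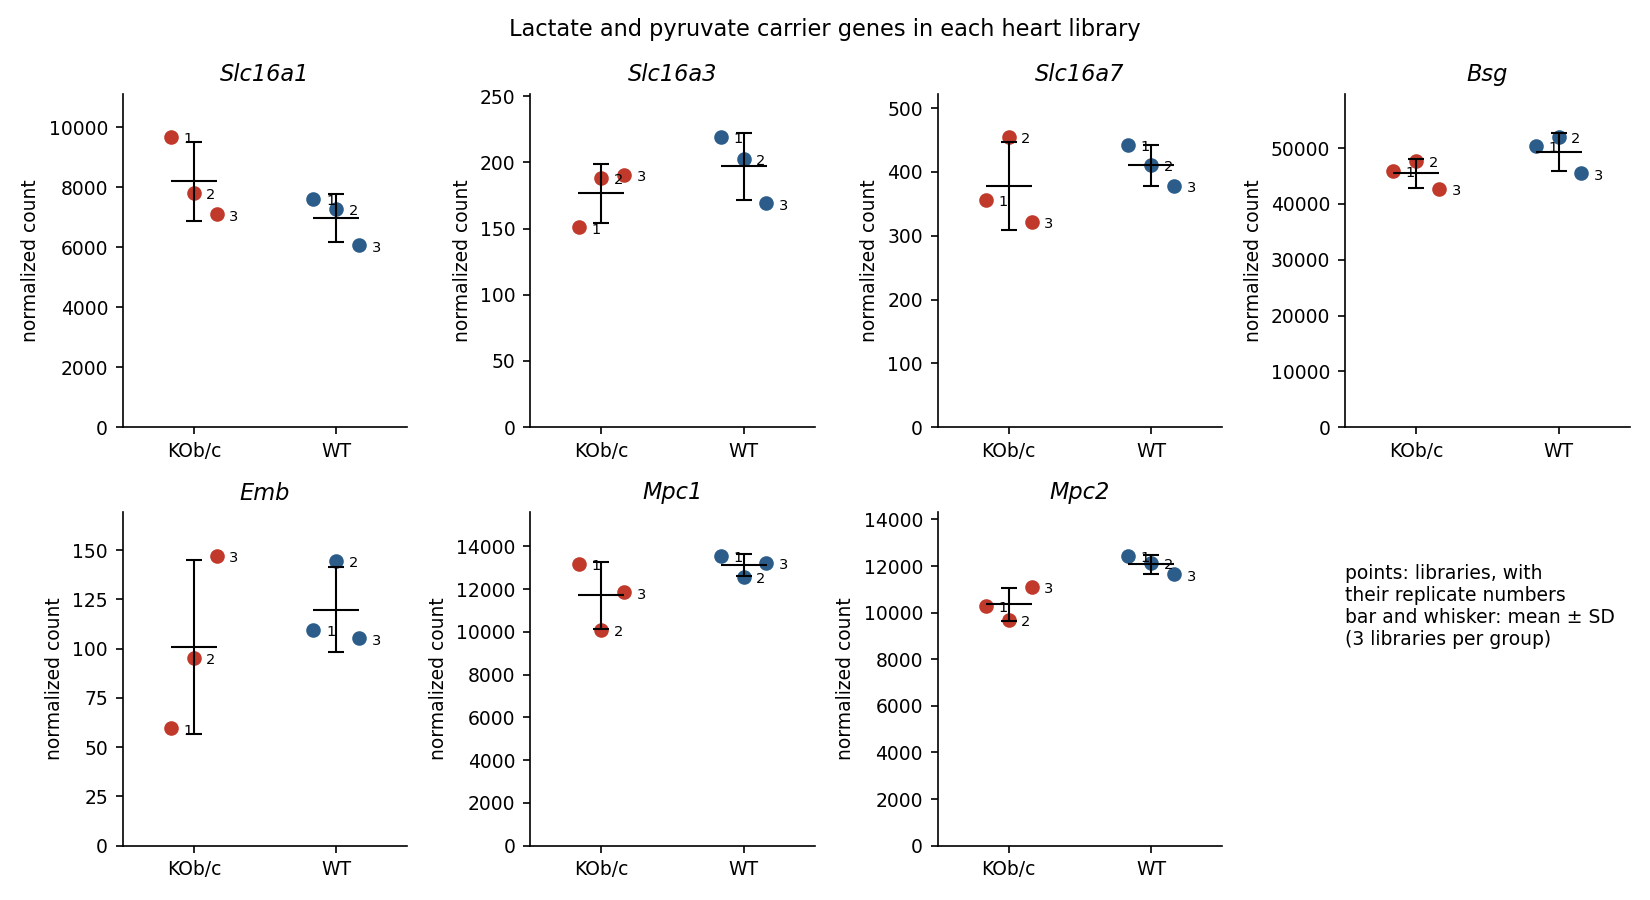
Normalized counts of the 7 carrier genes (vertical axis of each panel, from 0) in the KOb/c and WT heart libraries. Points are libraries with their replicate numbers, and the bar and whiskers are the mean and SD of 3 libraries. Only in the panel of *Mpc2* do the 2 groups of points not overlap, with the libraries labelled KOb/c between 9689 and 11110 and the WT libraries between 11640 and 12450.

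No carrier passed the adjusted threshold in the comparison of KOb/c with WT hearts. Of the 7, *Slc16a1* had a mean above WT and the other 6 had a mean below it, and the median log2 fold change of the 7 was -0.16 against -0.0043 over all genes tested. An unadjusted p under 0.05 was reached by 1 of 7, *Mpc2*, where the background is 23.5%, and DESeq2 called 1 of 7, the same gene, where the background is 9.91%. The libraries labelled KOb/c all lay below the WT libraries for 1 of 7 carriers, against 14.6% of all genes, and all above for 0 of 7, against 15.6%. These shares are near or under the background, so they are no result about the carriers. In whole-heart RNA, fewer cells of a type and less RNA per cell cannot be told apart.

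*Slc16a1* (ENSMUSG00000032902, chromosome 3 from 104638668 to 104658462 on GRCm38, plus strand) was listed at 9674, 7805 and 7095 normalized counts in the libraries labelled KOb/c replicates 1, 2 and 3, and at 7604, 7269 and 6063 in WT replicates 1, 2 and 3. Each library labelled KOb/c was above WT replicate 3, and KOb/c replicate 1 was above all others, while replicate 3 was below both of the other WT libraries. The mean was 8191 ± 1333 (SD, n = 3) in KOb/c and 6979 ± 810.6 (SD, n = 3) in WT, a fold of 1.17 with a 95% interval from 0.96 to 1.42. The difference in *Slc16a1* was within the spread of the libraries (log2 fold change 0.23, SE, or standard error, 0.12, limma adjusted p = 0.309). For *Slc16a1*, exact permutation of the group labels gave p = 0.3 (two-sided), and 3 against 3 libraries cannot reach a p below 0.1. Its log2 fold change was 0.10 without KOb/c replicate 1, 0.32 without KOb/c replicate 3 and 0.25 without KOb/c replicate 2.

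*Slc16a3* (ENSMUSG00000025161, chromosome 11 from 120948480 to 120960868, plus strand), the gene of MCT4, was listed at 150.9, 188.1 and 190.7 normalized counts in the libraries labelled KOb/c, and at 219.2, 202.7 and 169.1 in the WT libraries. KOb/c replicate 1 was the lowest library and WT replicate 1 the highest, and the groups overlapped. For *Slc16a3*, the log2 fold change was -0.16 (SE 0.15, limma adjusted p = 0.579), with a 95% interval from -0.51 to 0.19. For *Slc16a3* it was -0.05 without KOb/c replicate 1, -0.26 without WT replicate 3 and -0.21 without KOb/c replicate 2.

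*Slc16a7* (ENSMUSG00000020102, chromosome 10 from 125219270 to 125389465, minus strand), the gene of MCT2, was listed at 356.3, 454.8 and 321.9 normalized counts in the libraries labelled KOb/c, and at 442.6, 410.6 and 378.4 in the WT libraries. The library labelled KOb/c replicate 2 was the highest of all 6 and the other KOb/c libraries were the lowest, so the groups overlapped. For *Slc16a7*, the log2 fold change was -0.13 (SE 0.14, limma adjusted p = 0.61). Without KOb/c replicate 2, whose *Slc4a4* level went against its label, the log2 fold change of *Slc16a7* was -0.27 and the unadjusted p from limma was 0.0579, while without KOb/c replicate 3 the log2 fold change was -0.025.

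*Bsg* (ENSMUSG00000023175, chromosome 10 from 79704491 to 79711969, plus strand) encodes the chaperone that brings MCT1 and MCT4 to the cell surface. Its normalized counts were 45950, 47680 and 42720 in the libraries labelled KOb/c, and 50440, 51980 and 45470 in the WT libraries. Replicate 3 was the lowest in each group, and the highest KOb/c library was above the lowest WT library. *Bsg* had a log2 fold change of -0.12 (SE 0.084, limma adjusted p = 0.438), with a 95% interval from -0.31 to 0.075. For *Bsg* it was -0.15 without KOb/c replicate 2 and lay between -0.17 and -0.07 with any 1 library left out, with -0.07 reached without KOb/c replicate 3.

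*Emb* (ENSMUSG00000021728, chromosome 13 from 117208536 to 117274415, plus strand) was the least counted carrier, listed at 59.55, 95.1 and 147.2 normalized counts in the libraries labelled KOb/c, and at 109.6, 144.5 and 105.2 in the WT libraries. The libraries labelled KOb/c thus held both the lowest and the highest of the 6 values. Its lowest value rested on 60 reads, for which counting error alone was 12.9%, whereas the coefficient of variation among the libraries labelled KOb/c was 43.8%. *Emb* had a log2 fold change of -0.33 (SE 0.30, limma adjusted p = 0.556), with a wide 95% interval from -1.02 to 0.36. Without KOb/c replicate 1, it was -0.0024, so the difference rests on that library, and it was -0.65 without KOb/c replicate 3 and -0.34 without KOb/c replicate 2. *Emb* shares 686 exon bases with *Gm17509* on the opposite strand, and whether reads were counted by strand is not given in the sources used here.

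The *Emb* value moved with the markers of adipocytes, erythroid cells and, less closely, lymphocytes, out of 9 marker lists. On the log2 scale, Pearson's r with the marker sums was 0.961, 0.866 and 0.711 over the 6 libraries. Such values were not particular to *Emb*. Others were -0.934 for *Mpc2* with the endothelial sum, -0.902 for *Bsg* with the macrophage sum and 0.80 for *Slc16a1* with the cardiomyocyte sum. The 4 measured adipocyte markers of 5 listed had a summed level of 82.4, 1522 and 5029 normalized counts in the libraries labelled KOb/c, and of 1245, 3596 and 1982 in the WT libraries. KOb/c replicate 1 was lowest and KOb/c replicate 3 highest in this sum, as in *Emb*, and WT replicate 2 came next to the highest in both. The 6 erythroid markers had a summed level of 31093, 29465 and 133630 normalized counts in the libraries labelled KOb/c and of 52343, 117080 and 68696 in the WT libraries, with the same libraries as the 2 highest. The summed level of the 6 measured lymphocyte markers of 7 listed was between 191.5 and 484.4 normalized counts, lowest in KOb/c replicate 1 and highest in WT replicate 2. The endothelial and macrophage sums did not follow *Emb*, and WT replicate 2 had the lowest macrophage sum, at 5015.6 normalized counts. None of the measured markers was at 0 in any library, and *Lep* and *Cd3e* were not in the table analysed here. The part of these cells in the *Emb* values was not tested.

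**Figure D2:**
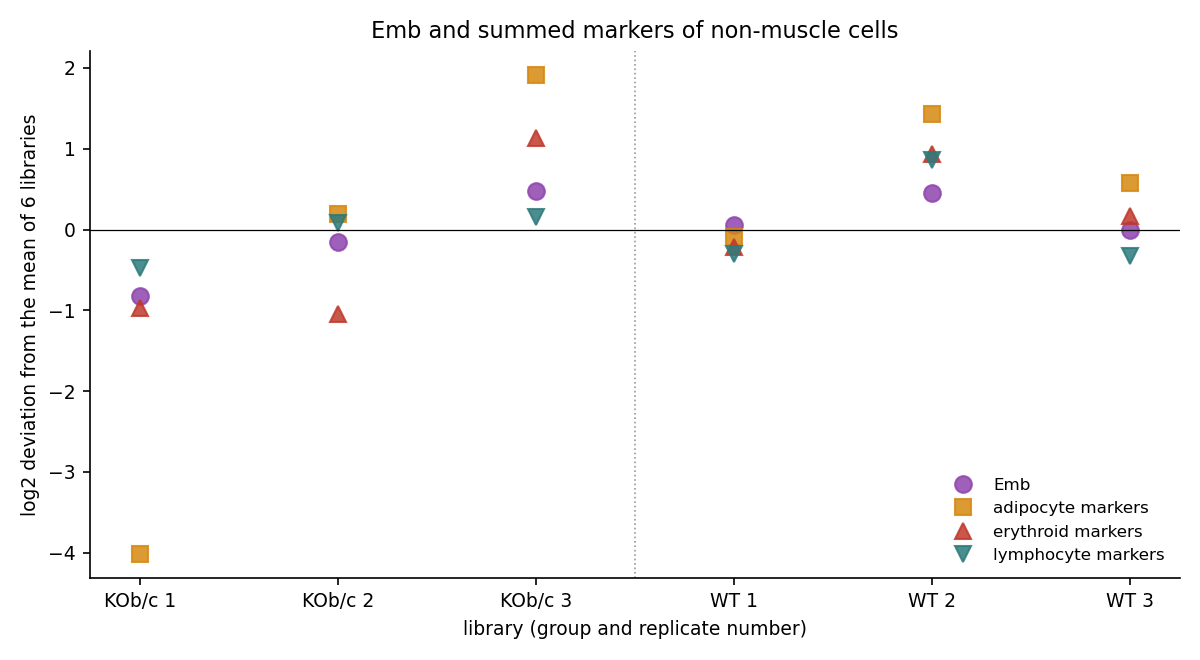
*Emb* and the summed normalized counts of adipocyte, erythroid and lymphocyte markers in each heart library, as the log2 deviation from the mean of the 6 libraries (vertical axis). KOb/c replicate 1, with *Emb* at 59.55 and the adipocyte sum at 82.4, is below the line at 0, and KOb/c replicate 3 and WT replicate 2 are above it in all 4 measures.

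*Mpc1* (ENSMUSG00000023861, chromosome 17 from 8282904 to 8297661, plus strand) was listed at 13190, 10080 and 11850 normalized counts in the libraries labelled KOb/c, and at 13570, 12560 and 13210 in the WT libraries. Replicates 2 and 3 of KOb/c were below all WT libraries, but KOb/c replicate 1 lay among them. *Mpc1* had a log2 fold change of -0.17 (SE 0.097, limma adjusted p = 0.32), and it was -0.07 without KOb/c replicate 2, which was the lowest library, and -0.26 without KOb/c replicate 1. *Mpc1* shares 480 exon bases with *4930506C21Rik* on the opposite strand, which had a mean of only 57.3 normalized counts.

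*Mpc2* (ENSMUSG00000026568, chromosome 1 from 165460637 to 165481214, plus strand), whose protein is the partner of MPC1, was listed at 10290, 9689 and 11110 normalized counts in the libraries labelled KOb/c, and at 12450, 12140 and 11640 in the WT libraries. Each library labelled KOb/c was below each WT library. The mean of *Mpc2* was 10360 ± 715.8 (SD, n = 3) in KOb/c and 12080 ± 405.3 (SD, n = 3) in WT, a fold of 0.857 with a 95% interval from 0.768 to 0.957. The log2 fold change of *Mpc2* was -0.22 (SE 0.070, limma unadjusted p = 0.0115 and adjusted p = 0.115), and the exact two-sided permutation test gave the smallest p possible, 0.1. For *Mpc2*, edgeR's quasi-likelihood test gave an adjusted p = 0.12 and DESeq2 an adjusted p = 0.0445, so whether it passed the threshold depended on the tool. Without KOb/c replicate 2, the log2 fold change of *Mpc2* was -0.17 and the unadjusted p from limma was 0.0519.

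Transcript length moved with the differences between the groups. Across all genes tested, the median log2 fold change was -0.21 for the 1415 genes whose longest protein-coding transcript is at most 1000 bases long, -0.14 between 1000 and 2000 bases, and 0.19 for the 3112 genes above 5000 bases. *Mpc1* (961 bases), *Mpc2* (1025 bases) and *Bsg* (1526 bases) are among the shorter genes, and their log2 fold changes of -0.17, -0.22 and -0.12 lay within the middle 50% of genes of like length. *Slc16a1* (4426 bases), at 0.23, was above the middle 50% of genes between 3000 and 5000 bases, which ended at 0.175, and *Slc16a3* (4335 bases), at -0.16, was below its start at -0.0857. After a correction for length and GC content, the log2 fold change of *Mpc2* was -0.05 (unadjusted p = 0.531 from limma) and its groups overlapped, that of *Mpc1* was -0.01 and that of *Bsg* was 0.04. With the 4015 bases of the retained intron transcript as its length, a choice made after seeing the data, that of *Mpc2* was -0.24. The corrected log2 fold change was 0.16 for *Slc16a1*, -0.20 for *Slc16a3* and -0.30 for *Emb*. *Slc16a7*, the longest carrier at 10981 bases, was at -0.38 after the correction (unadjusted p = 0.0338, adjusted p = 0.342 from limma), and was the 1 of 7 carriers with an unadjusted p under 0.05, where 13.3% of all genes had one. What lies behind the trend with length was not tested.

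**Figure D3:**
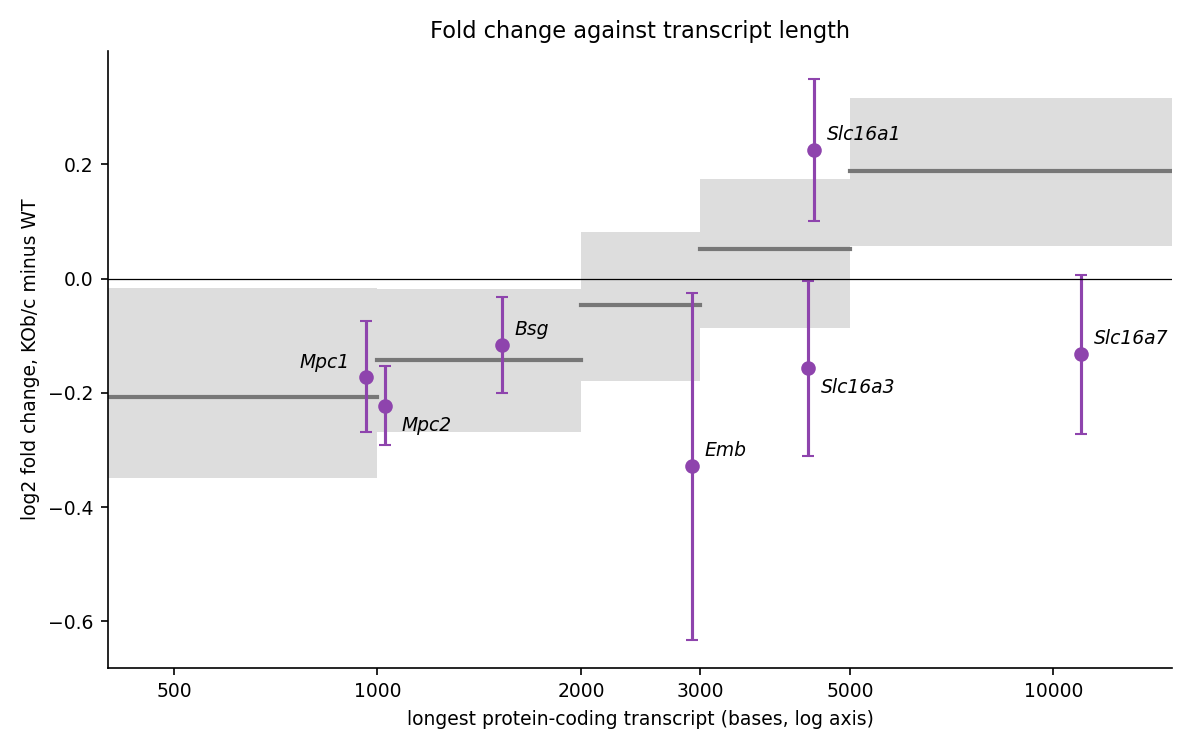
Log2 fold change of the 7 carriers, KOb/c minus WT (vertical axis, bars are the standard error), against the length of the longest protein-coding transcript (log axis). Grey lines are the medians and grey boxes the middle 50% of all genes tested in 5 length classes, whose medians climb from -0.21 to 0.19. *Mpc1*, *Mpc2* and *Bsg* lie in the grey boxes, and *Slc16a7* at -0.13 lies below that of the longest genes.

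Ratios between genes within a library do not depend on how the libraries were scaled to each other, and 4 were compared. The log2 ratio of *Mpc1* to *Mpc2*, the subunits of 1 complex, was 0.36, 0.06 and 0.09 in the libraries labelled KOb/c and 0.12, 0.05 and 0.18 in the WT libraries. Apart from KOb/c replicate 1, the libraries lay close together, and the means differed by 0.05 (exact two-sided permutation test, p = 0.8, adjusted p = 0.8 over the 4 ratios). The log2 ratio of *Slc16a1* to *Slc16a3*, that is of MCT1 to MCT4, was 5.99, 5.37 and 5.21 in the libraries labelled KOb/c and 5.11, 5.16 and 5.16 in the WT libraries. Each library labelled KOb/c was above each WT library, by 0.38 in the means, and the WT libraries spanned much less than the others. The exact two-sided permutation test for this ratio gave p = 0.1, the smallest possible (adjusted p = 0.2). Without KOb/c replicate 1 the difference was 0.15, and without KOb/c replicate 2 it was 0.46. The log2 ratio of *Slc16a1* to *Bsg* was -2.25, -2.61 and -2.59 in the libraries labelled KOb/c, and -2.73, -2.84 and -2.91 in the WT libraries. Again, the groups did not overlap, with a difference of 0.34 (exact two-sided permutation test, p = 0.1, adjusted p = 0.2), which was 0.22 without KOb/c replicate 1 and 0.41 without KOb/c replicate 2. After the correction for length and GC content, both of these ratios overlapped between the groups, with differences of 0.36 for *Slc16a1* to *Slc16a3* and 0.12 for *Slc16a1* to *Bsg*. The log2 ratio of *Ldha* to *Ldhb*, the genes of the muscle and heart subunits of lactate dehydrogenase, differed by -0.02 (exact two-sided permutation test, p = 0.7, adjusted p = 0.8).

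**Figure D4:**
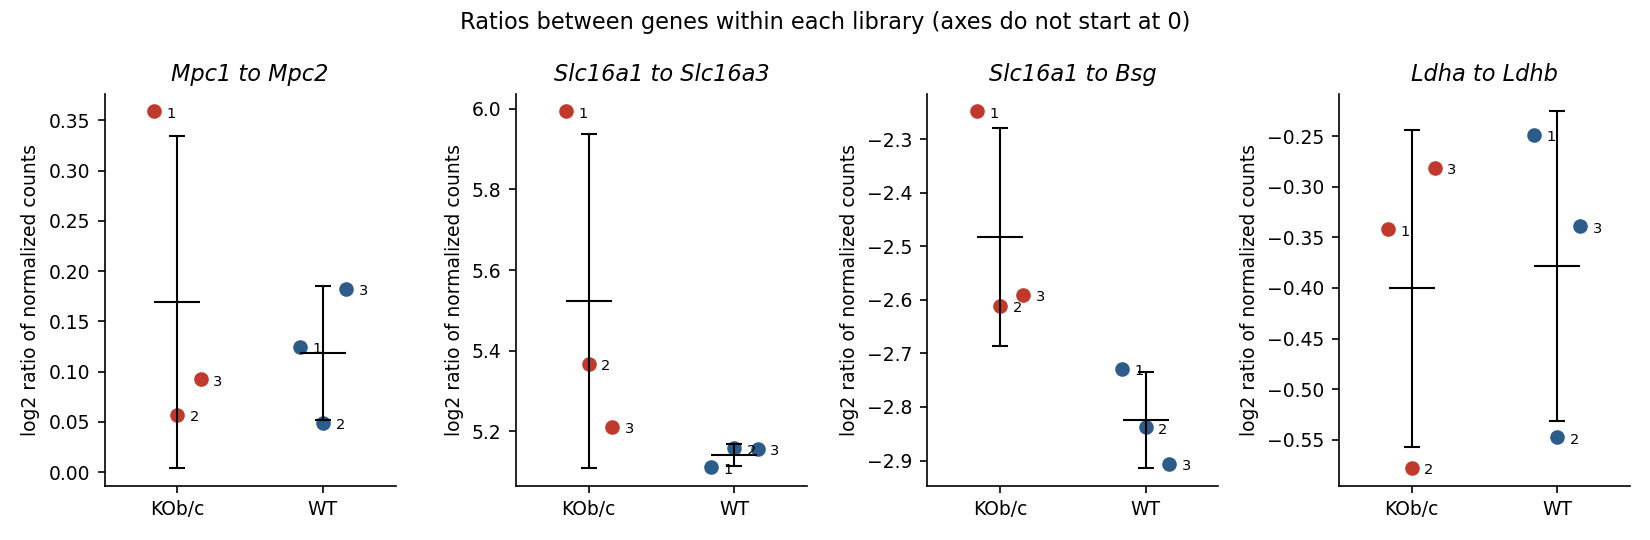
Log2 ratios of normalized counts between genes of the same library (vertical axes, which do not start at 0) in the KOb/c and WT heart libraries. Points are libraries with their replicate numbers, and the bar and whiskers are the mean and SD of 3 libraries. The ratios of *Slc16a1* to *Slc16a3* and to *Bsg* do not overlap between the groups, and KOb/c replicate 1 is highest in both, at 5.99 and -2.25.

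Of the other members of the *Slc16* family, 10 of 11 listed were measured and none passed the adjusted threshold. *Slc16a9*, which encodes the carnitine carrier MCT9, was listed at 263, 290.5 and 216.4 normalized counts in the libraries labelled KOb/c and at 150.6, 188.1 and 174.3 in the WT libraries, which lay below all of them. *Slc16a9* had a log2 fold change of 0.58 (SE 0.15, limma adjusted p = 0.0883), or 0.48 without KOb/c replicate 2, and rose with DESeq2 (adjusted p = 0.021). *Slc16a10*, which encodes an aromatic amino acid carrier, had a log2 fold change of 0.10. DESeq2 called 1 of the 10, where the background is 9.91%, and the median log2 fold change of the 10 was 0.08. *Nptn*, the gene of the related chaperone neuroplastin, was the only 1 of 4 further transport and chaperone genes in the table, with a log2 fold change of 0.01.

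The enzymes that interconvert lactate and pyruvate showed no difference beyond the spread of the libraries. Of 3 measured lactate dehydrogenase genes of 4 listed, none had an unadjusted p under 0.05. Normalized counts of *Ldha* ran from 32780 to 39960 in the libraries labelled KOb/c and from 37360 to 42840 in the WT libraries. Those of *Ldhb* ran from 46490 to 50650 and from 48350 to 54610 in the same groups. Among 7 measured genes of pyruvate formation and anaplerosis of 8 listed, 1 had an unadjusted p under 0.05, namely *Gpt2*, the mitochondrial alanine aminotransferase (log2 fold change 0.24, or 0.27 without KOb/c replicate 2, adjusted p = 0.128 from limma), where the background is 23.5%. *Pkm*, which encodes the pyruvate kinase of muscle, had a log2 fold change of 0.19, and *Me1*, the cytosolic malic enzyme, one of 0.20. The groups overlapped for both.

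Of the pyruvate dehydrogenase complex and the enzymes that switch it, 12 of 13 listed genes were measured, none passed the adjusted threshold, and 3 of 12 had an unadjusted p under 0.05, near the background of 23.5%, all with a higher mean in KOb/c. The same 3, *Pdp2*, *Pdpr* and *Pdk2*, rose with DESeq2, where the background is 9.91%. All libraries labelled KOb/c were above all WT libraries for these 3 and for *Dlat*, a subunit of the complex, 4 of 12, where the background is 15.6%. *Pdp2* encodes a phosphatase that activates the complex and was listed at 1672, 1526 and 1625 normalized counts in the libraries labelled KOb/c and at 993.7, 1263 and 1011 in the WT libraries. The log2 fold change of *Pdp2* was 0.57 (SE 0.10, limma adjusted p = 0.0815 and adjusted p = 0.000208 from DESeq2), and stayed between 0.51 and 0.68 with any 1 library left out. *Pdpr*, which encodes the regulatory subunit of the phosphatase, had a log2 fold change of 0.56 (adjusted p = 0.0823 from limma and 0.00112 from DESeq2). *Pdk2*, a kinase that inactivates the complex and thus acts against the phosphatase, had a log2 fold change of 0.23 (adjusted p = 0.115 from limma and 0.0349 from DESeq2). Without KOb/c replicate 2, the values were 0.61 for *Pdp2*, 0.61 for *Pdpr* and 0.28 for *Pdk2*. After the correction for length and GC content, they were 0.42 for *Pdp2*, 0.44 for *Pdpr* and 0.33 for *Pdk2* (limma adjusted p = 0.297 for each). The subunits *Pdha1* and *Pdhb*, with the highest levels per kilobase on the list, had log2 fold changes of 0.15 and -0.11, and both overlapped between the groups. The kinase gene *Pdk4*, named after its values were seen, was listed at 57120 normalized counts in the library labelled KOb/c replicate 2 and between 8566 and 19330 in the other 5. The median log2 fold change of the 12 genes was 0.17, and 0.12 after the correction for length and GC content.

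**Figure D5:**
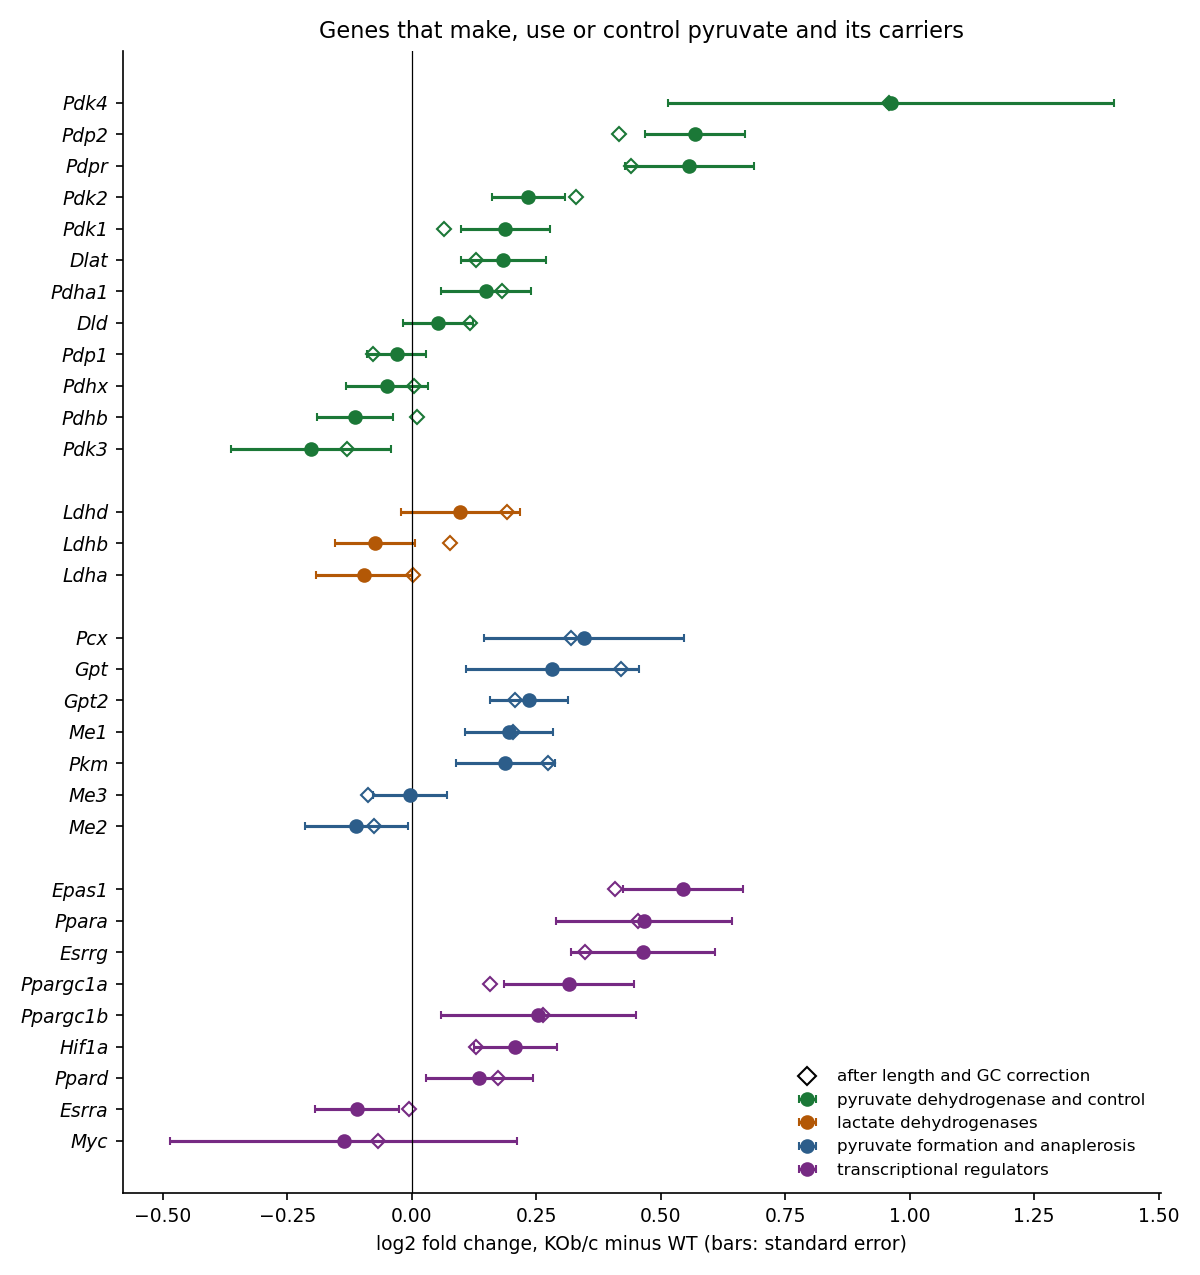
Log2 fold change, KOb/c minus WT (horizontal axis, bars are the standard error), of the measured genes of 4 lists, with open diamonds for the value after the correction for length and GC content. *Pdp2* at 0.57 and *Epas1* at 0.54 lie to the right of 0 with and without the correction, as *Pdk4* does with a wide bar, while *Ldha* and *Ldhb* lie close to 0.

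Among the other carriers of the inner mitochondrial membrane, all 11 listed were measured and 2 had an unadjusted p under 0.05, below the background of 23.5%. *Slc25a12*, the aspartate and glutamate carrier of the malate-aspartate shuttle, was listed at 13990, 11380 and 12020 normalized counts in the libraries labelled KOb/c and at 10390, 10370 and 10290 in the WT libraries. *Slc25a12* had a log2 fold change of 0.26 (adjusted p = 0.114 from limma), or 0.33 without KOb/c replicate 2, and rose with DESeq2 (adjusted p = 0.0305), but after the correction for length and GC content it was at 0.09. *Slc25a10*, the dicarboxylate carrier, had a log2 fold change of -0.25 (adjusted p = 0.162 from limma), which was -0.21 without KOb/c replicate 2 (unadjusted p = 0.0888 from limma) and -0.12 after the correction. DESeq2 called 1 of the 11, where the background is 9.91%. The adenine nucleotide carrier *Slc25a4* and the phosphate carrier *Slc25a3*, with the highest levels per kilobase on the list, were at -0.15 and 0.02. The median log2 fold change of the 11 was 0.0165, beside -0.22 for *Mpc2* and -0.17 for *Mpc1*. After the correction, the median was 0.09, *Mpc2* was at -0.05 and *Mpc1* at -0.01.

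Transcription factors and coactivators known to act on genes of lactate and pyruvate metabolism were all measured, 9 of 9. None passed the adjusted threshold, and 5 of 9 had an unadjusted p under 0.05, where the background is 23.5%, all with a higher mean in KOb/c. After the correction for length and GC content, 3 of 9 had one, *Epas1*, *Esrrg* and *Ppara*, where the background is 13.3%. *Hif1a* overlapped between the groups, with a log2 fold change of 0.21 that was 0.16 without KOb/c replicate 2 (unadjusted p = 0.127 from limma) and 0.13 after the correction. *Ppargc1a* was at 0.32, at 0.15 without KOb/c replicate 1, at 0.37 without KOb/c replicate 2 and at 0.16 after the correction. *Epas1*, the gene of the hypoxia-inducible factor HIF-2α, was listed at 16520, 12980 and 12870 normalized counts in the libraries labelled KOb/c and at 8800, 11090 and 9116 in the WT libraries, which lay below all of them. The log2 fold change of *Epas1* was 0.54 (SE 0.12, limma adjusted p = 0.0815), or 0.60 without KOb/c replicate 2, and it rose with DESeq2 (adjusted p = 0.000598). *Esrrg*, an oestrogen-related receptor, and *Ppara*, a receptor that controls fatty acid oxidation, also rose with DESeq2 (log2 fold change 0.46 and 0.47 from limma, adjusted p = 0.0149 and 0.033 from DESeq2). Leaving out KOb/c replicate 1, which was the highest library for both, gave 0.30 for *Esrrg* and 0.26 for *Ppara*, and leaving out KOb/c replicate 2 gave 0.57 and 0.62. DESeq2 thus called 3 of the 9, where the background is 9.91%. *Esrra*, which had the highest level per kilobase of the list, was at -0.11. Of the 5 endothelial markers, 2 had an unadjusted p under 0.05 with a higher mean in KOb/c, where the background is 23.5%. Their median log2 fold change was 0.18. After the correction for length and GC content, this median was 0.08, and 1 of 5 had an unadjusted p under 0.05, where the background is 13.3%. *Epas1* was at 0.41 after the correction. Endothelial cells also express *Epas1*, and the part of these cells in its values was not tested.

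Other proteins that move acid across the cell membrane of cardiac muscle were measured for 6 of 8 listed genes. None passed the adjusted threshold with limma, and DESeq2 called 1 of the 6, where the background is 9.91%. *Slc4a7*, the electroneutral bicarbonate cotransporter NBCn1, had a log2 fold change of 0.38 (adjusted p = 0.136 from limma), or 0.49 without KOb/c replicate 2 and 0.24 without KOb/c replicate 1, and rose with DESeq2 (adjusted p = 0.0492). After the correction for length and GC content, *Slc4a7* was at 0.18 (unadjusted p = 0.138 from limma) and its groups overlapped. The surface carbonic anhydrases *Car14* and *Car4*, which supply protons and bicarbonate to such carriers, were at 0.05 and -0.06.

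The genes most like each carrier over the 6 libraries, by Pearson's r of log2(normalized count + 1) among genes with a mean of at least 100, are given as a description, since the libraries differ in many genes at once. They were *Tbc1d9b* (r = 0.992) and *Qsox1* (r = 0.988) for *Slc16a1*, *Ret* (r = 0.984) and *Sirt6* (r = 0.984) for *Slc16a3*, and *Ilvbl* (r = 0.976) and *2210016F16Rik* (r = 0.971) for *Slc16a7*. For the chaperones they were *Smg9* (r = 0.994) and *Sar1a* (r = 0.985) for *Bsg*, and *Spg21* (r = 0.981) and *Bin2* (r = 0.980), a gene of blood cells, for *Emb*. For the mitochondrial carrier they were *Akr1e1* (r = 0.978) and *Ing1* (r = 0.977) for *Mpc1*, and *Rdm1* (r = 0.995) and *Echdc2* (r = 0.992) for *Mpc2*. No gene was named for 2 carriers, and no carrier was among those named for another.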

How the data were processed

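Hearts of 3 KOb/c and 3 WT female mice were compared, with groups and replicate numbers taken from the sample labels. The authors deposited a normalized signal for each gene: its read count over the size factor of the library, with no scaling to length. No column was left unmatched (0). Per the submitters' processing notes, Trimmomatic 0.36, STAR 2.5.2b, featureCounts of Subread 1.5.2 and DESeq2 were used with GRCm38. The annotation, the strand setting and the treatment of shared reads are not given in the sources used here.

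Dividing by the value of 1 read gave whole numbers for 100% of values in each library, within 0.1 reads. Libraries shared at most 1.4% of identical read counts, so none was a copy. The labels give each library a replicate number but do not state that each is a separate animal, which is assumed here. The p-values measure the spread between these 6 libraries. Values were taken as log2(normalized count + 1) and tested two-sided in limma 3.58.1 (R 4.3.3) with its trend option. Genes under a mean of 10 were dropped, which left 16016, and the Benjamini-Hochberg threshold was 0.05 over these. On this scale the change of low genes is understated. Alternatives were count tests on the recovered reads (edgeR 4.0.16, DESeq2 1.42.0), a pseudocount of 0.5 or 5, a minimum mean of 50 or none, other scalings, the replicate block, each library left out, and a correction for length and GC content (splines of 5 degrees of freedom). Gene positions and lengths are from GENCODE M21 (GRCm38), which was chosen here, and were matched for 15980 genes. Scripts were tested on simulated data.

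The carriers and the lists were chosen with earlier results of these data known. Named are all carriers, the targeted gene, and, of each list, genes past the threshold, the 2 with the highest mean per kilobase and the 2 with the smallest p, and the 2 genes most like each carrier. Other genes named beside a count, and the motifs, were chosen after their values were seen. Genes listed but not in the table were not analysed here. Some other genes that meet this rule are not reported here.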

Additional observations from a re-analysis of the deposited data

How the results depend on the processing

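The groups hold 3 libraries each, and 1 library labelled KOb/c had *Slc4a4* above the WT libraries. Of 380 values recomputed under the alternatives, 365 kept their direction and their side of the threshold or stayed within 1.5 times. Many of the 380 are counts of genes past the threshold that were 0 in the main fit. For a fold change, its size did not enter this tally. *Emb*, at -0.33 with all libraries and -0.0024 without KOb/c replicate 1, is among the 365, so the tally does not measure how stable the sizes are. DESeq2 on the recovered reads called 1587 genes, or 9.91% of those tested. Among them was 1 of 7 carriers (*Mpc2*, log2 fold change -0.22, adjusted p = 0.0445). It also called 1 of 10 other *Slc16* genes, 3 of 12 of the pyruvate dehydrogenase list and 1 of 11 inner membrane carriers. Of the regulators it called 3 of 9, and of the acid extruders and carbonic anhydrases 1 of 6. In each of these lists, limma and edgeR called 0. edgeR reached an unadjusted p under 0.05 for 3837 genes and limma for 3764. DESeq2 gave no adjusted p for some low genes, which stayed out of its counts. Leaving out each library in turn gave 0 to 3 genes past the threshold with limma, the 3 without KOb/c replicate 2. *Bsg* turned from -0.12 to 0.044 under the correction for length and GC content, to 0.044 with the replicate block added, and to 0.040 with the longest transcript of any type. The cause was not tested beyond this correction. Over the fits that leave out 1 library, the difference in the log2 ratio of *Mpc1* to *Mpc2* lay between -0.044 and 0.107, below 0 only without KOb/c replicate 1, and that of *Ldha* to *Ldhb* between -0.106 and 0.067, above 0 without KOb/c replicate 2 or WT replicate 1. The replicate numbers are shared by the groups and did not pair the libraries: the correlations of deviations were 0.227, 0.072 and -0.029 for numbers 1, 2 and 3, and only number 1 correlated best with itself in each group. The fit with the replicate block also called 0 genes and no carrier. Its unadjusted p from limma was 0.0136 for *Slc16a1*, 0.0494 for *Mpc1* and 0.0172 for *Mpc2*. The share of all genes with an unadjusted p under 0.05 in that fit is not given here, so these values are no result about the carriers.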
